A study of Homo sapiens with 6 samples.

Results

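Alternative splicing of the genes for endosomal sorting, membrane fusion and vesicle tethering was examined in MDA231-BrM2a cells, a brain metastatic derivative of the human breast cancer cell line MDA-MB-231. Members were every event whose gene symbol began with VPS, SNX, STX, VAMP, EXOC or CHMP followed by a digit, with EXOC7 left out, which gave 202 cassette exon events in 68 genes of 24725 events in 7969 genes. A cassette exon event is an exon that is either spliced in between its neighbours or skipped. The control group held 3 samples with the empty vector pRetroX-Tight-Pur, and the RBM47 group held 3 samples with pRetroX-Tight-Pur Flag WT RBM47, an inducible transgene for the RNA-binding protein RBM47. All 6 samples received doxycycline at 10 ng/ml for 3 days, so the drug is shared by both groups. The RBM47 cells were a single clone and the control cells were not clonal, so an effect of RBM47 cannot be told apart from one of the clone. Nothing in the labels says that replicates came from separate cultures, and p-values of the replicate-level test measure only the spread between these samples. Fisher's exact test pools the reads of a group, so its p-values do not see that spread.

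These genes serve the traffic of membrane between the endosome, the Golgi apparatus, the lysosome and the cell surface. Retromer (VPS26, VPS29 and VPS35), often with sorting nexins, retrieves receptors from endosomes, while the ESCRT complexes (VPS28, VPS37, VPS36 and the CHMP proteins) bud vesicles into them and the ATPase VPS4 takes ESCRT-III apart. HOPS, CORVET, GARP and the exocyst are tethers that hold a vesicle at its target membrane, and syntaxins (STX) and VAMPs are SNAREs, whose pairing across the gap drives fusion. By family, the members were 78 VPS events in 23 genes, 77 SNX events in 19 genes, 20 STX events in 11 genes, 8 VAMP events in 4 genes, 9 EXOC events in 6 genes and 10 CHMP events in 5 genes. The symbol rule also took in VPS72, which encodes a chromatin protein, with 1 event. Among the 11 STX genes, the joint symbol STX16-NPEPL1 was counted apart from STX16. It had 2 events, and 1 of them shared both outer ends with an STX16 event.

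The exons of EXOC1, STX2, VPS29 and SNX14, on which the comparison turns, and of STX3, which has the same place in its protein as that of STX2, are shown here 5′ to 3′ on the strand of the gene with 60 bases of the upstream intron in lower case and exon bases in capitals. For EXOC1 and SNX14, 60 bases of the downstream intron follow the exon, also in lower case. The sequences are from GRCh37, read at exons of GENCODE v44lift37 that were matched by gene and by the distance between the outer ends of the event, since the build of the table's own coordinates is not stated. EXOC1 is shown from chr4:56754994-56755158 (plus strand) with its whole exon of 45 coding bases, or 15 codons, which held no stop codon in any frame. STX2 is shown from chr12:131280588-131280725 (minus strand) and STX3 from chr11:59564696-59564836 (plus strand), up to the last coding base before the stop codon. The STX2 exon has 126 bases, of which 78 are coding (26 codons), and the STX3 exon has 114 bases, of which 81 are coding (27 codons). In both genes the exon, where it is coding, therefore ends the reading frame, at the C terminus where a syntaxin carries its membrane anchor. The STX2 exon is part of 3 transcripts, 1 protein coding and 2 annotated as nonsense-mediated decay, and the STX3 exon of 3, all protein coding. SNX14 is shown from chr6:86248496-86248642 (minus strand), with a coding exon of 27 bases, or 9 codons. It is part of 71 transcripts, 22 protein coding and 41 annotated as nonsense-mediated decay. VPS29 is shown from chr12:110936645-110936724 (minus strand), with the first bases only of an exon of 40 bases that is annotated as not coding. The STX2 exon was matched by 1 outer end alone, and is the least certain of the 5.
EXOC1: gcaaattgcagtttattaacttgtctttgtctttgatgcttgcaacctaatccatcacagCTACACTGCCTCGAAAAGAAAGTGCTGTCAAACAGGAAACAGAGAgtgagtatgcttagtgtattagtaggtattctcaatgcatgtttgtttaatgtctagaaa
STX2: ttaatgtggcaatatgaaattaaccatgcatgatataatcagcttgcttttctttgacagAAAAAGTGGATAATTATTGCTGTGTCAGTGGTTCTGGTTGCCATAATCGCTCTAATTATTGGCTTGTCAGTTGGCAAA
STX3: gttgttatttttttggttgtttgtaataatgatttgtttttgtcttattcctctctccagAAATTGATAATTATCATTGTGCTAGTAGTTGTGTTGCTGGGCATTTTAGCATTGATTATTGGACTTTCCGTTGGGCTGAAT
SNX14: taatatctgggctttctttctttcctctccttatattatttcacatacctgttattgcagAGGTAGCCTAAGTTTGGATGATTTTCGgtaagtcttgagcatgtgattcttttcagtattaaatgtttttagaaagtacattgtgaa
VPS29: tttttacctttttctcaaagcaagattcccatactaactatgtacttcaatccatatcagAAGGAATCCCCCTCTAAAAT
In all 5 the intron ended in ag at the exon. The 60 upstream intron bases held 35 t in STX3, 29 in SNX14, 23 in EXOC1, 23 in VPS29 and 22 in STX2.

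The inclusion rate of a sample weighs reads that join the exon to its 2 neighbours against reads that join the neighbours directly, the latter counted 2 times because they have a single junction. It runs from 0 (always skipped) to 1 (always included). Reads were deposited only as totals over the 3 samples of a group, so the depth of a single sample is unknown. Member events had 161481 reads in control and 148814 in RBM47 samples, a ratio of 0.922 (0.910 over all events), and a median of 920.5 reads per event over both groups (range 42 to 16192). The RBM47 gene had no event in the table, so the transgene was not checked here. Of 8 marker genes listed, 4 had events, and their group totals differed. Reads of the mesenchymal markers were lower in RBM47 samples, with 741835 in control and 507943 in RBM47 samples for VIM, 25226 and 13434 for CD44 and 14407 and 5167 for FN1. Those of KRT8, a keratin of luminal epithelium, were higher, with 3199 and 6358. No event was listed for EPCAM, CDH1, ESR1 and KRT18. These totals have no replicate error, and the part of such differences in the results on member exons was not tested. RBM47 replicate 2 stood apart from the other samples. Where the mean rate lay between 0.1 and 0.9, its own rate was at one of the limits (0 or 1) in 14.8% of all events, and that of the other 5 samples in 6.10% to 7.63%. Over the 26 members in that range its share was 19.2%, against 0% to 11.5%. In 15 member events the sample rates did not average to the group averages printed in the same row. These were matched again by the averages, 12 of them by both averages and 3 by the RBM47 average alone, and 14 of the 15 then moved in the direction of the read totals, while 1, in CHMP5, had a difference of 0. Only the direction was checked, not the size of the rates. In several of the 15, in VPS29 and CHMP5, the control rate from summed reads lay above every control sample.

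Most member exons were hardly alternative in either group. The mean inclusion rate over all 6 samples was above 0.9 in 125 events (61.9%, against 55.7% of all events) and under 0.1 in 51 events (25.2%, against 20.0%). The remaining 26 events, in 20 genes, were intermediate (12.9%, against 24.3%). The rate was 1 in every sample in 25 events and 0 in every sample in 7. All 12 events of ESCRT-III and VPS4 and all 8 VAMP events lay outside the intermediate range. Members also share reads, since 57 events had both outer ends in common with another member.

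Under the criteria of the study (Fisher's exact test on the group totals with p of at most 0.05, a difference of at least 0.2 in mean inclusion rate and at least 10 reads), 3 member events had a higher inclusion rate in RBM47 samples and 0 a lower one. Of all 24708 events with rates, 0.615% were higher and 0.793% lower by the same criteria. In either direction the share was 1.49% of members and 1.41% of all events. The 3 events lay in EXOC1, STX2 and VPS29, and all 3 were among those matched by the RBM47 average alone. Their control rates, on which each difference depends, were therefore not matched to the control average printed in the row. A replicate-level test was made by limma on the 6000 intermediate events, and a call needed both an adjusted p under 0.05 and the same minimum difference. It called 1 member of 26 higher, EXOC1, and 0 lower, against 0.75% and 0.783% of all events tested. With no minimum difference, 2 members had an adjusted p under 0.05 (2.23% of all events tested), EXOC1 and SNX14. An unadjusted limma p under 0.05 was found in 7 members, 4 higher and 3 lower (12.0% of all events tested). Control and RBM47 rates were fully apart in 7 of the 26, 3 higher and 4 lower (17.9% of all events tested).

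**Figure D1:**
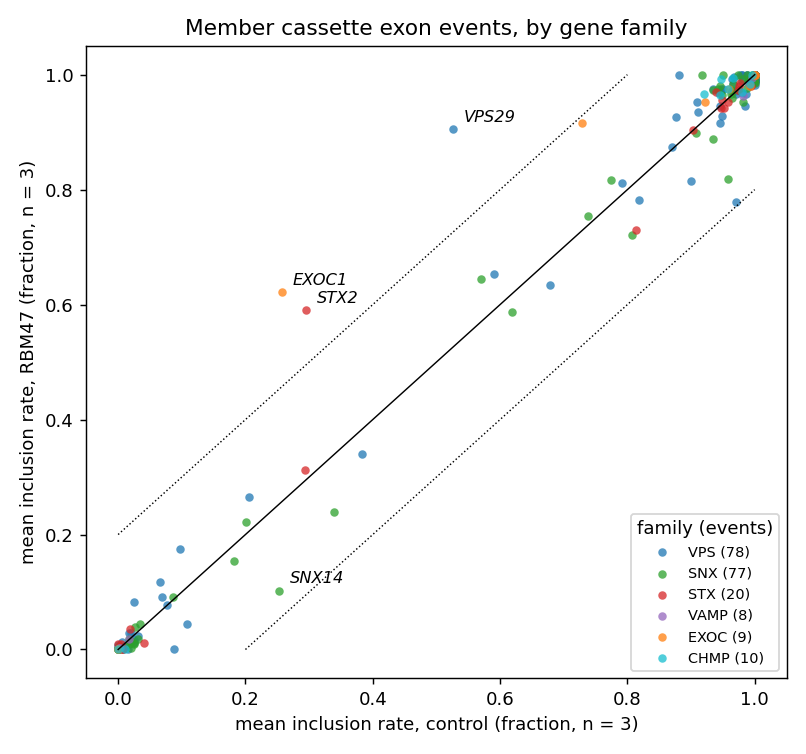
Mean inclusion rate (fraction) of the 202 member events in control (x axis) against RBM47 samples (y axis), each point 1 event and each mean over 3 samples, coloured by gene family. The solid line marks equal rates and the dotted lines a difference of 0.2 either way; EXOC1, STX2 and VPS29 lie above the upper line and 0 events below the lower one.

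The exocyst ties secretory vesicles to the plasma membrane, and EXOC1 encodes one of its subunits. The EXOC1 exon (chromosome 4, 56444745 to 56451308 between the outer ends, as the table gives them) had inclusion rates of 0.2, 0.259 and 0.314 in control and 0.622, 0.611 and 0.633 in RBM47 samples. Every RBM47 sample lay far above every control sample. The control mean was 0.258 ± 0.0569 and the RBM47 mean 0.622 ± 0.0110 (SD, n = 3), and the rise of 0.364 exceeded the spread between replicates (limma adjusted p = 0.00905). Group totals turned from mostly skipping to mostly including reads, from 152 including against 203 skipping in control to 187 against 55 in RBM47 samples. The adjusted p passed 0.05 when control replicate 2 (0.0584) or RBM47 replicate 1 (0.0567) was left out, while the difference stayed between 0.336 and 0.393 with any 1 sample left out. By annotation, the exon adds 15 codons to the reading frame and is part of 3 transcripts, 2 of them protein coding.

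Of the other exocyst genes, EXOC5 came nearest to a change. Its coding exon of 195 bases had rates of 0.529, 0.840 and 0.818 in control and 1, 1 and 0.75 in RBM47 samples. The groups overlapped, the difference of 0.187 had a limma adjusted p of 0.432, and the RBM47 rates rested on 38 reads in all, against 191 in control. EXOC3, EXOC3L1, EXOC4 and EXOC6 exons had rates of 0.877 to 1 in each sample, except for an EXOC6 event at 0 in all 6. A further EXOC1 event was also at 0 throughout.

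Syntaxins are the membrane-bound SNAREs of the target side, with STX2 and STX3 mainly at the plasma membrane. The STX2 exon (chromosome 12, 129842039 to 129849132) had rates of 0.247, 0.251 and 0.387 in control and 0.591, 0.765 and 0.417 in RBM47 samples. The groups did not overlap, but RBM47 replicate 3 lay just above the highest control sample. The difference of 0.295 (0.295 ± 0.0798 against 0.591 ± 0.174, SD, n = 3 each) met the criteria of the study, on totals of 139 including against 148 skipping reads in control and 106 against 41 in RBM47 samples. It did not exceed the spread between replicates by limma (adjusted p = 0.211, and 0.108 to 0.479 over its alternatives).

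STX3 has an exon of the same place in the protein, and its rates went the other way. They were 0.776, 0.816 and 0.849 in control and 0.710, 0.788 and 0.689 in RBM47 samples (chromosome 11, 59319420 to 59326756), from 1186 and 1308 reads. One RBM47 sample lay within the control range, and the difference of -0.0847 had a limma adjusted p of 0.352. Whether STX2 and STX3 differed from each other was not tested. The third intermediate syntaxin exon, in STX16, a SNARE of the trans-Golgi network, had rates of 0.273 to 0.312 in control and 0.270 to 0.359 in RBM47 samples. The other 17 syntaxin events had a mean rate above 0.9 or under 0.1.

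VAMPs are the SNAREs of the vesicle side, and their 8 events hardly moved. The median absolute difference was 0.000667 over these events. VAMP8, the most deeply read, had an exon at 0.990 to 1 in every sample, from 4146 reads in control and 6304 in RBM47 samples. The CHMP genes, whose proteins form the ESCRT-III filament, had 8 near-constitutive and 2 mostly skipped events. The CHMP4A exon of 115 coding bases had rates of 0.898, 0.915 and 0.947 in control and 0.961, 0.969 and 0.969 in RBM47 samples. These did not overlap, but the difference was 0.0463, and Fisher's exact test on 420 and 501 reads gave an adjusted p of 0.228 (the event is named after its values were seen). Both VPS4B exons were at a rate of 1 in all samples except RBM47 replicate 2, where 1 of them was at 0.970.

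**Figure D2:**
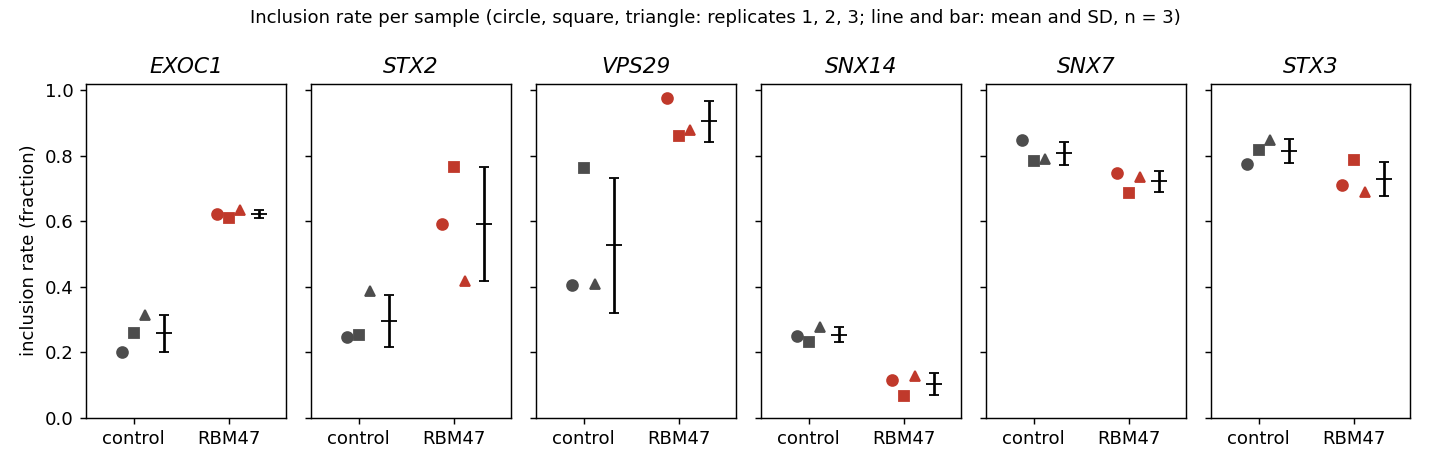
Inclusion rate (fraction, y axis) in each sample of 6 member exons, with control samples in grey, RBM47 samples in red, circle, square and triangle for replicates 1, 2 and 3, and a line and bar for the mean and SD (n = 3). The EXOC1 samples of each group sit close together at 0.2 to 0.314 and 0.611 to 0.633, while STX2 in RBM47 samples and VPS29 in control samples are widely spread.

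Retromer had 18 events in 4 genes, and 3 of them were intermediate, all in VPS29. VPS29 forms part of the core of the complex together with VPS26 and VPS35. The VPS29 event past the criteria of the study (chromosome 12, 109418199 to 109421733) had rates of 0.406, 0.764 and 0.407 in control and 0.976, 0.861 and 0.878 in RBM47 samples. Control replicate 2 lay much nearer to the RBM47 samples than to the other control samples, though the groups did not overlap. The mean difference was 0.379 (0.526 ± 0.206 against 0.905 ± 0.0622, SD, n = 3 each, limma adjusted p = 0.0770). The limma adjusted p was 0.0320 without control replicate 2 and 0.170 to 0.314 without any other sample. With reads summed over a group (314 including and 50 skipping in control, 282 and 12 in RBM47 samples) the difference was 0.163, under the required 0.2. The summed control rate of 0.758 lay beside that of control replicate 2 and far above the other control rates. It would need nearly all control reads to come from that replicate. Whether rates and totals are at odds here cannot be told, since the depth of each sample is unknown.

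In all, VPS29 had 8 events, and 7 of them began at the same outer end, so they draw on overlapping reads and are not independent. With outer ends 109418199 and 109424289, one event had rates of 0.364, 0.404 and 0.383 in control and 0.345, 0.327 and 0.346 in RBM47 samples. These did not overlap, yet the difference of -0.0441 had a limma adjusted p of 0.573. From summed reads the rates were 0.430 in control and 0.362 in RBM47 samples, each above every sample of its group. A second event with the same outer ends had rates of 0.0670, 0.164 and 0.0611 in control and 0.168, 0.2 and 0.156 in RBM47 samples. Here, too, control replicate 2 stood with the RBM47 samples, and the difference of 0.0772 had a limma adjusted p of 0.362. From summed reads the control rate of this second event was 0.212, above every control sample. Its difference was then -0.0106, of the other sign, so no direction is read for it. In the pair of events between 109418199 and 109421046, rates and read totals were also at odds. One had rates of 0 to 0.0256 in every sample, although its totals were 685 including against 141 skipping reads in control and 426 against 227 in RBM47 samples. The other had rates of 0.0352 to 0.156 in control and 0.0357 to 0.0503 in RBM47 samples, with 520 including and 141 skipping reads against 324 and 227. From summed reads their differences were -0.224 and -0.232, while their mean rates differed by -0.00350 and -0.0637. Which exon each of these events includes could not be told from the outer ends. Such conflicts were not limited to this pair. A further VPS29 event between 109418199 and 109424289 had control rates of 0.0161 to 0.0363, but 0.312 from summed control reads. In control, EXOC5 had rates of 0.529 to 0.840 and 0.891 from summed reads. An SNX19 event (130286737 to 130291583) had 0.217 to 0.5 and 0.878, and an SNX5 event (17871753 to 17876288) 0.00633 to 0.0266 and 0.221. The cause was not tested.

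**Figure D3:**
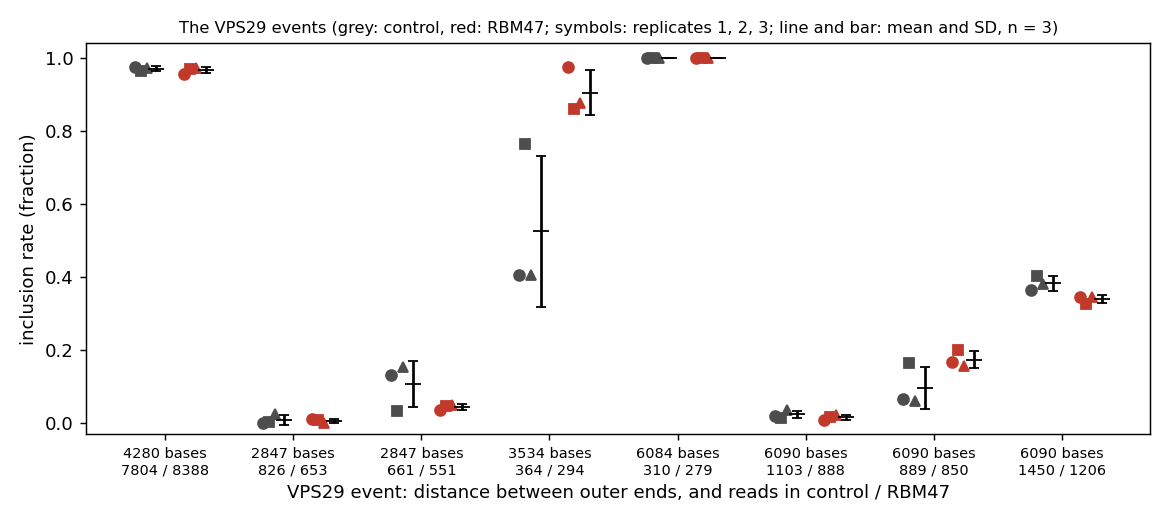
Inclusion rate (fraction, y axis) in each sample for the 8 VPS29 events, labelled on the x axis by the distance between outer ends in bases and by the reads in control and RBM47 samples. Control samples are grey and RBM47 samples red, with symbols for replicates 1, 2 and 3 and a line and bar for the mean and SD (n = 3); the event of 3534 bases is the one past the criteria of the study.

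The other retromer subunits were near constitutive or nearly always skipped. An exon of 123 coding bases in VPS35, the scaffold of retromer, had rates of 0.934, 0.927 and 0.941 in control and 0.966, 0.972 and 0.990 in RBM47 samples, from 1661 and 1320 reads. The groups did not overlap and the skipping reads were 56 and 14, but the difference was 0.0416, and the event lay above the range tested by limma (it is named after its values were seen). By Fisher's exact test on the totals the adjusted p was 0.00110. VPS26A events differed by at most 0.021 in size.

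Sorting nexins carry a phosphoinositide-binding PX domain, and some also a membrane-curving BAR domain. Their 77 events included 10 intermediate ones, and 0 met the criteria of the study. SNX14, a sorting nexin anchored in the endoplasmic reticulum, had a difference of at least 0.15, under the required 0.2, with a Fisher p of at most 0.05. The SNX14 exon (chromosome 6, 86303228 to 86308479) had rates of 0.251, 0.231 and 0.278 in control and 0.114, 0.0649 and 0.128 in RBM47 samples. All RBM47 samples lay well under all control samples, with 297 including against 421 skipping reads in control and 97 against 363 in RBM47 samples. The control mean was 0.253 ± 0.0234 and the RBM47 mean 0.102 ± 0.0330 (SD, n = 3), which fell by 0.151 (limma adjusted p = 0.0485). That p is close to the threshold and was 0.0891 to 0.206 with any 1 sample left out, whereas the difference was -0.164 to -0.132. A second intermediate SNX14 exon (86324412 to 86338651) had rates of 0.733 to 0.846 in control and 0.778 to 0.893 in RBM47 samples, a difference of 0.0416 (limma adjusted p = 0.822).

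Among the sorting nexins with a BAR domain, SNX7 had the deepest intermediate exon, of 153 coding bases. Its rates (chromosome 1, 98939960 to 98998643) were 0.847, 0.783 and 0.790 in control and 0.747, 0.685 and 0.734 in RBM47 samples, from 1622 and 1997 reads. The groups did not overlap, but the difference of -0.0850 had a limma adjusted p of 0.232. The intermediate exon of SNX5, a partner of retromer in cargo retrieval, had rates of 0.696 to 0.799 in control and 0.713 to 0.795 in RBM47 samples, with a difference of 0.0161 (limma adjusted p = 0.913). A second intermediate SNX7 exon (98899877 to 98923210) had rates of 0.158 to 0.267 in control and 0.179 to 0.284 in RBM47 samples (limma adjusted p = 0.913). SNX11 was hard to read at its depth. Of its intermediate events, the one with outer ends 43539909 and 43544445 ran from 0.391 to 0.8 in control and from 0.259 to 1 in RBM47 samples, on 54 and 40 reads.

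ESCRT and the tethers VPS16, VPS52 and VPS53 had intermediate exons with many reads and small differences. The exon of VPS52, a GARP subunit, had rates of 0.739, 0.833 and 0.801 in control and 0.834, 0.746 and 0.856 in RBM47 samples, from 1335 and 1530 reads (limma adjusted p = 0.861). The exon of VPS53, also of GARP, had rates of 0.652 to 0.723 in control and 0.554 to 0.733 in RBM47 samples. In VPS16, shared by HOPS and CORVET, the rates were 0.513 to 0.640 in control and 0.583 to 0.768 in RBM47 samples. The exon of VPS37A, an ESCRT-I subunit, had rates of 0.802 to 0.831 in control and 0.770 to 0.801 in RBM47 samples, which did not overlap, with a difference of -0.0363 (limma adjusted p = 0.634). The VPS13 lipid-transfer genes had the fewest reads (median 110 per event). Of these, VPS13B showed a difference of -0.193 in 1 exon that came from RBM47 replicate 2 alone, at 0.333 against 1 in the other RBM47 samples, and VPS13D had 0.5 in the same sample against 0.943 and 1.

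Over the 26 intermediate members the median absolute difference was 0.0681 (0.0597 over all intermediate events), with 14 higher and 12 lower in RBM47 samples. The median SD was 0.0588 in control and 0.0645 in RBM47 samples. An exon length could be given for 81 members matched to 1 exon by both outer ends. It was a multiple of 3 in 8 of 12 intermediate exons (66.7%), in 25 of 54 near-constitutive exons (46.3%) and in 8 of 15 mostly skipped exons (53.3%). The median lengths were 112.5, 103.5 and 79 bases. These shares describe few exons and were not tested.

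Partner genes of the same pathways were listed for comparison, namely other SNAREs and their regulators (83 events in 21 genes), other ESCRT genes (73 events in 15 genes) and the WASH, retriever and endosomal kinase genes (66 events in 19 genes). Of these 222 events, 0 met the criteria of the study (1.41% of all events) and 0 were called by limma in either direction (0.75% higher and 0.783% lower of all events tested). At an unadjusted limma p under 0.05 there were 4 of 41 intermediate events (12.0% of all events tested), and in 5 of 41 the groups did not overlap (17.9%). No test of a difference between members and partners was made. Their median absolute difference in the intermediate range was 0.0427.

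Junction reads per gene were compared as group totals only, which have no replicate error and no test. Bulk totals cannot tell fewer cells of a kind from less RNA per cell, and events that share junctions count some reads more than once. Over the 62 member genes with at least 200 reads, the median ratio of RBM47 to control reads was 0.836 (0.865 over 6994 genes). Reads were at least 1.5 times higher in 3 genes (4.84%, against 4.23% of all genes) and at least 1.5 times lower in 14 (22.6%, against 25.7%). The 3 were STX8 (642 reads in control and 1188 in RBM47 samples, ratio 1.85), CHMP1A (1521 and 2554, ratio 1.68) and VAMP8 (6334 and 9598, ratio 1.52). STX8 and VAMP8 are both SNAREs of late endosomal fusion. The lowest ratios were in VPS13A (257 and 45 reads, 0.175), EXOC5 (191 and 38, 0.199) and VPS13B (307 and 119, 0.388). The genes with the called exons also had fewer reads in RBM47 samples in the case of STX2 (534 and 267) and EXOC1 (548 and 326).

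**Figure D4:**
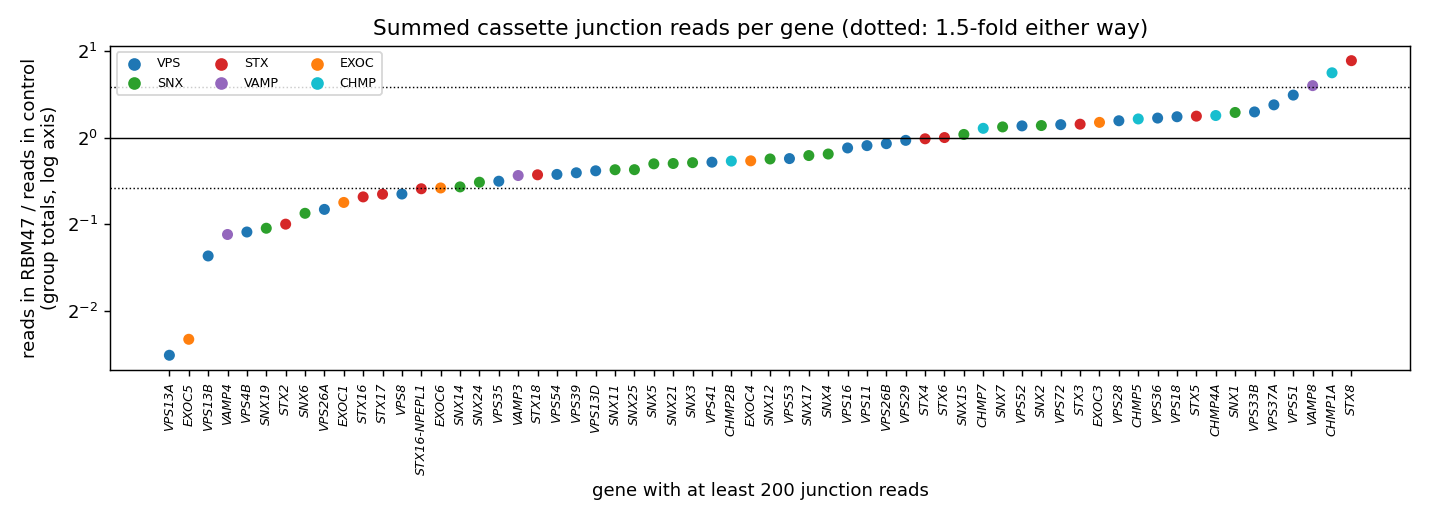
Ratio of summed cassette junction reads in RBM47 to control samples (y axis, log scale) for the 62 member genes with at least 200 reads (x axis, ordered by ratio), coloured by family. The dotted lines mark 1.5-fold either way; points are single group totals without error, from VPS13A at 0.175 to STX8 at 1.85.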

How the data were processed

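RNA-seq libraries of 6 samples were made from polyadenylated RNA, and the submitters' processing notes name TopHat. The authors deposited 1 table of cassette exon events with an inclusion rate per sample as a fraction, group averages, and read counts summed over the 3 samples of a group for the including and the skipping isoform. The table also holds the authors' difference and p-value, which were not used. Per-sample rates were kept where they averaged to the row's group averages within 3e-09 and were otherwise matched again by those averages (both, or the RBM47 average alone), which left 24708 of 24725 events with rates. Read totals were used to check the matching and for Fisher's exact test (two-sided, scipy 1.17.1). They also gave the rates from summed reads, the reads of marker genes and the read ratios per gene, and the depth used in the limma fit.

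The replicate-level test used limma 3.58.1 (R 4.3.3) after an arcsine square root transformation, with the variance allowed to follow log2 reads, over all events with a mean rate of 0.1 to 0.9, and Benjamini-Hochberg adjustment over them. Counts per sample were not used here, so no count model was fitted and no interval is given for a rate. Members, gene lists and the form of the tests were chosen with earlier results of these data known. Named events were those past either test, those that differed by at least 0.1 at an unadjusted limma p under 0.05, the deepest intermediate event of each list, the deepest with a difference under 0.05, and those with a difference of 0.15 to 0.2 and a Fisher p of at most 0.05. Others named were chosen after their values were seen. Exons were matched to GENCODE v44lift37 on GRCh37 by gene and span. Same-numbered samples did not deviate together across events (r = -0.0198, -0.00294 and 0.0152), so replicate numbers were not taken to mark pairs.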

Additional observations from a re-analysis of the deposited data

How the results depend on the processing

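The 3 higher and 0 lower member events under the criteria of the study became 0 higher when only rows aligned as deposited were kept, because all 3 lie in rows that were matched again. With rates from summed reads they became 2 higher (the VPS29 event was lost) and 2 lower (the VPS29 pair between 109418199 and 109421046, whose rates and totals were at odds). A required difference of 0.1 gave 3 higher and 1 lower (SNX14), and one of 0.3 gave 2 higher (STX2 was lost) and 0 lower. Leaving out 1 sample gave 3 higher and 0 lower throughout, but only the mean difference was recomputed. The Fisher p still came from the group totals of all 6 samples, since reads per sample are unknown. For the replicate-level test, lower events became 1 with no minimum difference (SNX14), and higher events ranged from 0 to 1 with 1 sample left out. The count was 0 without RBM47 replicate 1, and without control replicate 2 the 1 call was VPS29 in place of EXOC1. With replicate numbers entered as a replicate block, 1 member was called higher and 0 lower, and 29 higher and 40 lower events were called in the whole table, against 45 and 47 without the block. With the block the limma adjusted p was 0.0369 for EXOC1 and 0.0811 for SNX14. Of 255 alternatives computed for 17 named events, 244 changed no outcome, 10 lost one and 1 gained one. An outcome here was meeting the criteria of the study, or a limma adjusted p under 0.05 with no minimum difference. Most of the 244 had no outcome to lose, so their number does not measure stability. Only EXOC1, STX2 and VPS29 met the criteria of the study, and only EXOC1 and SNX14 had such an adjusted p. The outcomes lost were in EXOC1, SNX14 and VPS29, and SNX14 was not a call under either test. The sign of the difference changed in 11 of 119 alternatives for it, in 6 events past neither test, namely SNX5, SNX11, STX16, VPS13D, VPS52 and the SNX7 exon at 98899877. The furthest went from -0.0329 to 0.131 in SNX11 without RBM47 replicate 1 and from -0.0849 to 0.0722 in VPS13D without RBM47 replicate 2, so no direction is read for these 6. Where a call or an outcome was lost, the cause was not tested. Depth per sample is unknown, which limits every rate in events with few reads, such as EXOC5, SNX11 and the VPS13 genes.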
